A study of Mus musculus with 15 samples.

Results

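Interferon response genes are genes whose transcription rises when interferon reaches a cell. Expression of 42 of them, named by symbol, was followed by RNA-seq in the livers of male C57BL/6J mice kept on 1 of 3 diets. All 42 were found among the 56980 gene IDs of the count table, and all 42 passed the filter on low counts, as did 14627 genes in total. Ketogenic livers came from mice on a diet with 89.9% fat (n = 5 libraries), high-fat livers from mice on a diet with 60% fat (n = 5), and control livers from mice on a diet with 10% fat (n = 4). In all 3 groups the mice were wild type and received their diet for 9 months from 15 weeks of age, and the treatment label of every library also carries the term ALF, which the labels do not spell out. A 15th library, control replicate 1, was excluded by the submitters as contaminated and entered no comparison. Nothing in the labels says that the libraries are from different animals, so the p-values cover the spread between these libraries alone, which may be technical.

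Interferons are secreted proteins that bind receptors on the cell surface and, through Janus kinases, activate transcription factors, Stat2 and Irf9 among them, that bind the interferon-stimulated response element (ISRE) in promoters, while signalling by interferon gamma acts mainly through the gamma-activated site (GAS). The induced genes include sensors of foreign RNA and DNA, enzymes that block viral replication, ubiquitin-like modifiers and GTPases that attack membranes around intracellular microbes. In liver, hepatocytes, macrophages and endothelial cells can all express them, and the liver is a tissue that responds to both type I and type II interferon.

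Total counts ran from 16329425 to 25349148 over the 14 libraries compared. Levels are counts scaled to a common library total (CPM), with library sizes adjusted by the trimmed mean of M-values (TMM), with means ± SD over the libraries of a group. Log2 fold changes and their SE come from edgeR's quasi-likelihood test over all 14627 genes, with p-values adjusted by the Benjamini-Hochberg method and a threshold of 0.05. Such a p is called the edgeR adjusted p here, and a gene is said to rise or fall where it passed that threshold. Summed markers of hepatocytes, which make up most of the liver, were lower in both fat-rich diets than in controls without overlap, at 75016 to 125298 CPM in ketogenic, 97559 to 130428 CPM in high-fat and 139370 to 170042 CPM in control livers, with all 6 markers detected in every library. All 6 had log2 fold changes below 0 in both diets, with medians of -0.48 in ketogenic and -0.47 in high-fat livers, and 1 of the 6 fell in each, the urea cycle gene Cps1, while at an unadjusted p under 0.05 it was 6 in ketogenic and 3 in high-fat livers. In bulk liver, fewer cells of a type and less RNA per cell cannot be told apart, and the part of this difference in the values of the interferon response genes was not tested. Ketogenic replicate 5 stood apart from the other ketogenic libraries and had the lowest of these sums, and its values are given beside the results they touch.

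In ketogenic livers, 10 of the 42 genes were higher than in controls and none was lower. These were the RNA and DNA sensor genes Dhx58 and Zbp1, the oligoadenylate synthetase genes Oas1a, Oas2, Oas3 and Oasl2, the ubiquitin ligase gene Dtx3l, the GTPase genes Gbp3 and Gbp6, and Ifi44. Their rises lay between 1.33-fold for Dtx3l and 2.80-fold for Gbp6. Among all genes tested, 7.47% were higher and 4.6% lower in the same comparison, against 23.8% of the interferon response genes that were higher. The log2 fold change was above 0 for 36 of the 42, where 53.5% of all genes had one above 0. The median log2 fold change of the 42 was 0.44, against 0.03 over all genes. At an unadjusted p under 0.05, 19 of the 42 were higher and 0 lower, against 16.2% of all genes that were higher. DESeq2 called 13 of the 42 higher and 0 lower, with 1350 of all genes higher. The count of 10 depended on single libraries: it was 5, 3, 2 and 4 without control replicate 2, 3, 4 and 5, 6 without ketogenic replicate 2, 16 without ketogenic replicate 4 and 6 without ketogenic replicate 5. Control replicate 2 had the highest summed pancreatic acinar and neutrophil markers of the 14 libraries, at 1391 and 85.2 CPM, against 24.6 to 153 and 2.91 to 4.48 CPM in the other controls, and their part in the counts was not tested. In every one of these fits none of the 42 was lower. Over all genes, 1093 were higher with every library in the fit. That number was 1062, 724, 658 and 704 without control replicate 2, 3, 4 and 5. It was 871, 1077 and 1043 without ketogenic replicate 2, 4 and 5.

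In high-fat livers, 1 of the 42 genes was higher than in controls, Rsad2, and none was lower, while 6.95% of all genes were higher and 5.01% lower. The log2 fold change was above 0 for 28 of the 42, against 51.0% of all genes. The median log2 fold change of the 42 was 0.15, against 0.01 over all genes. At an unadjusted p under 0.05, 10 of the 42 were higher and 2 lower, against 14.4% of all genes that were higher. DESeq2 called 6 of the 42 higher and 0 lower, with 1287 of all genes higher. Both comparisons use the same 4 control libraries, so their values are not independent of each other. Without control replicate 2 or 3, or without high-fat replicate 2 or 5, the count was 0. It was 2 without control replicate 5 or without high-fat replicate 1 or 3. Over all genes, 1016 were higher with every library in the fit. Without control replicate 2, 3 or 5 that number was 916, 659 and 664. Without high-fat replicate 1, 2, 3 or 5 it was 1187, 787, 732 and 749.

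Ketogenic and high-fat livers, set against each other directly, passed the threshold for none of the 42 genes, with 0.00684% of all genes higher and 0.0547% lower. At an unadjusted p under 0.05, 7 of the 42 were higher and 0 lower in ketogenic livers, against 5.39% of all genes that were higher, and DESeq2 called 0. The log2 difference was above 0 for 38 of the 42, against 54.2% of all genes. The median log2 difference was 0.22, against 0.02 over all genes. The 95% interval of a difference reached 0.42 on the log2 scale to each side in the median, and 0.74 for the least precise gene. A rise past the threshold in ketogenic livers alone therefore does not show that both fat-rich diets differ in that gene. Without ketogenic replicate 5, 1 of the 42 passed (Ifi27), and 315 of all genes did, against 9 with it.

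**Figure D1:**
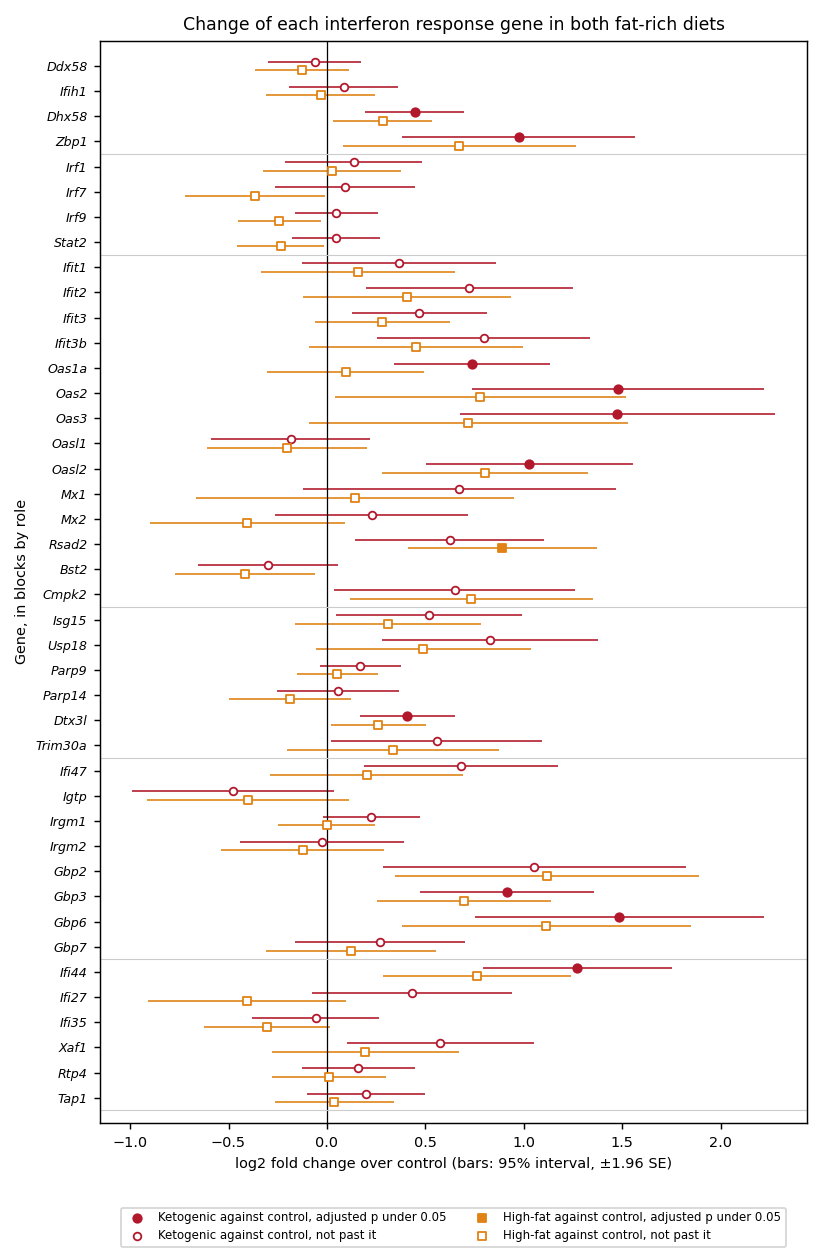
Log2 fold change of each of the 42 genes, grouped by role, for ketogenic against control and high-fat against control livers, with bars for the 95% interval and filled points for genes past the threshold. The 10 filled ketogenic points and the single filled high-fat point, Rsad2, all lie to the right of 0.

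Levels of different genes are comparable only per length. Per kilobase of exon, Bst2, which tethers budding virus particles to the cell membrane, was the most abundant of the 42, at 124 CPM per kilobase in ketogenic, 114 in high-fat and 152 in control livers. Ifi27, an interferon-inducible membrane protein gene, came second with 122, 68.5 and 90.7 CPM per kilobase in the same groups. Oas3 was the least abundant of the 42 in all 3 diets, at 0.390 CPM per kilobase in ketogenic, 0.233 in high-fat and 0.141 in control livers. Mx1, Gbp6 and Ifi44 ranked just above Oas3 in each group. The 2 genes with the highest levels did not pass the threshold in either comparison with controls, while Oas3, Gbp6 and Ifi44 rose in ketogenic livers. Raw counts of the 42 ran from 11 for Mx1 in a control library to 4760 for Ifi27 in a ketogenic library, and the counts of Oas3 in controls were 17 to 22, so the values of both carry more counting error than those of the other genes.

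**Figure D2:**
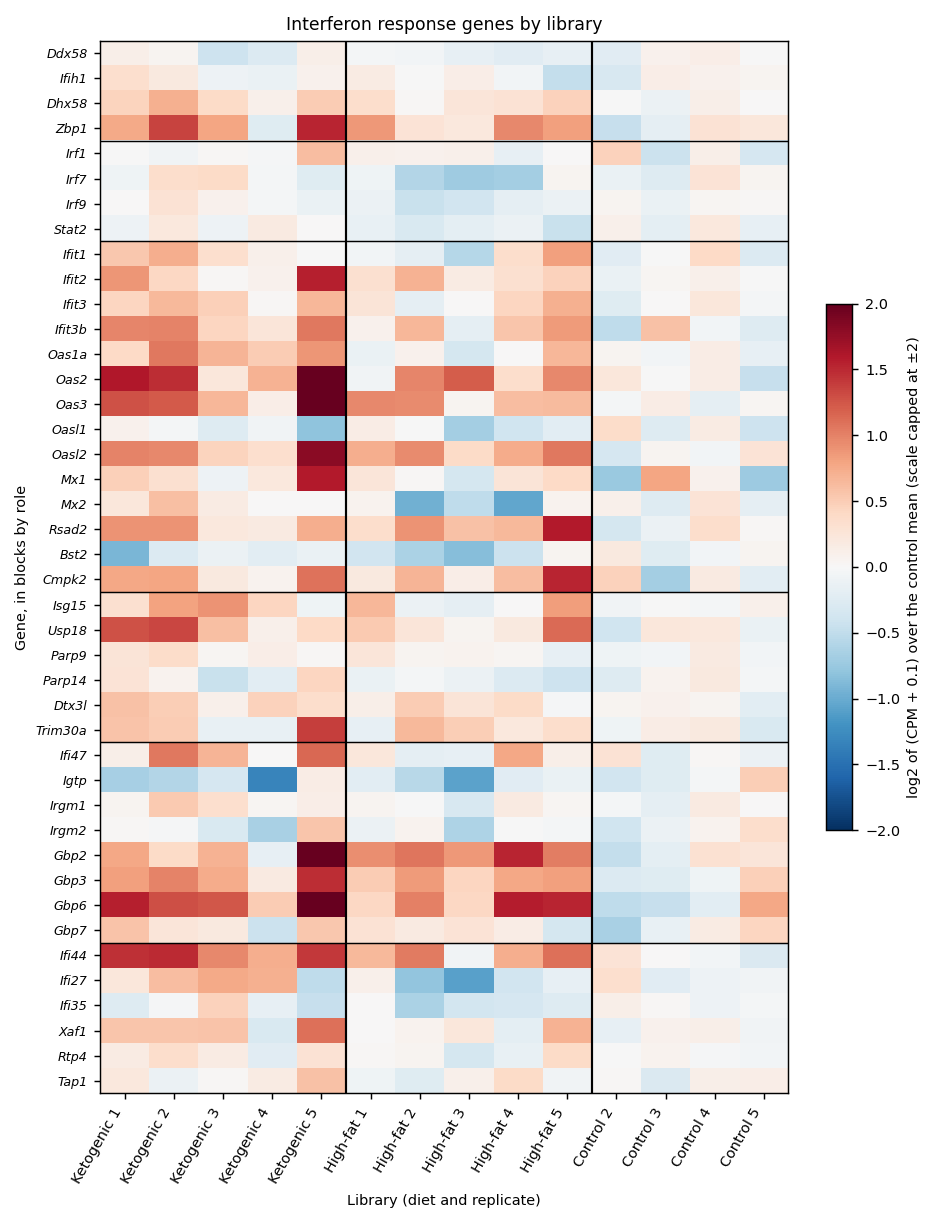
Level of each of the 42 genes in each of the 14 libraries, as the log2 ratio to the mean of the control libraries, with genes grouped by role and libraries by diet. Ketogenic replicate 5 has the highest value of the 14 libraries for 17 genes, and ketogenic replicate 4 for 0.

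The promoters of the 42 genes were searched for letters of these response elements, since the genes are defined by that response. RefSeq windows on GRCm38.p6, from 250 bases before to 50 bases after the annotated start, were at hand for 31 of the 42. The ISRE core was searched as GAAANNGAAA and the GAS as TTCNNNGAA, each on both strands, with overlapping matches counted. An ISRE core was present in 18 of the 31 genes (58.1%) and in 1079 of all 27025 genes with a window (3.99%). A GAS was present in 8 of the 31 (25.8%) and in 9.55% of all genes. Among the genes that rose in ketogenic livers, 3 of the 6 with a window held an ISRE core, as did 15 of the 25 that did not pass the threshold there. A match is a description of the letters and not a bound site. The windows shown are those of 4 genes that rose and hold the core (Gbp3, Oas1a and Oas3 in ketogenic livers, Rsad2 in high-fat livers), of Isg15, which holds 3 matches and did not pass the threshold in either comparison, and of Ifi44, which rose and holds none. Each is written 5′ to 3′ on the strand of its gene, with the bases of ISRE core matches in capitals.
Gbp3 promoter, chr3:142559794-142560093 (plus strand): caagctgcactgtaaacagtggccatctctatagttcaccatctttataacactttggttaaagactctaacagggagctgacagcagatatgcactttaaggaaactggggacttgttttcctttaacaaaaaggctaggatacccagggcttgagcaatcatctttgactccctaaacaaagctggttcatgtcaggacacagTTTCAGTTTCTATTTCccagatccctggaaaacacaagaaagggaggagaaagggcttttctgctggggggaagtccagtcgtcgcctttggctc
Oas1a promoter, chr5:120907476-120907775 (minus strand): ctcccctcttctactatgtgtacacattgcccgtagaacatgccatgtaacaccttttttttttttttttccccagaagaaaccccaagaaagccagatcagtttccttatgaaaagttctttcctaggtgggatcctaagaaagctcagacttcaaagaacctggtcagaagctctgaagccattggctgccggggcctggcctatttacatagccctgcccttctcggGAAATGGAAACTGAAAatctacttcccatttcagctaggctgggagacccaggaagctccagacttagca
Oas3 promoter, chr5:120777610-120777909 (minus strand): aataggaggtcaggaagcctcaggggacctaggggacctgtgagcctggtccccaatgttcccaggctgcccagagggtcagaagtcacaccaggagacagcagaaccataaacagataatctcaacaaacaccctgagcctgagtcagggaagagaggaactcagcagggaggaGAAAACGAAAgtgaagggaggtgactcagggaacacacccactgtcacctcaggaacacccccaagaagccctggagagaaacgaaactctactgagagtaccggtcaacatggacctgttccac
Rsad2 promoter, chr12:26456403-26456702 (minus strand): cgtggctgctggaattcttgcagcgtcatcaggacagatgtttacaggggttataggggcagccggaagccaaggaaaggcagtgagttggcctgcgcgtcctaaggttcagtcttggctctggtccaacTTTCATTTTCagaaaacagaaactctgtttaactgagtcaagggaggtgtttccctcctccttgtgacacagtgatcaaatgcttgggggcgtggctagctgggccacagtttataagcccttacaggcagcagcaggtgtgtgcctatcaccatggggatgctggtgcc
Isg15 promoter, chr4:156200769-156201068 (minus strand): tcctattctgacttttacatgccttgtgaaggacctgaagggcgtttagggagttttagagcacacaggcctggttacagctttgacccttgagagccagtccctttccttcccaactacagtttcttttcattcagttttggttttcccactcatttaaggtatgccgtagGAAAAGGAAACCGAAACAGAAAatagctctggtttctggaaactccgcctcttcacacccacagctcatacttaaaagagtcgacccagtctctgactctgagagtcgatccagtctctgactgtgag
Ifi44 promoter, chr3:151749861-151750160 (minus strand): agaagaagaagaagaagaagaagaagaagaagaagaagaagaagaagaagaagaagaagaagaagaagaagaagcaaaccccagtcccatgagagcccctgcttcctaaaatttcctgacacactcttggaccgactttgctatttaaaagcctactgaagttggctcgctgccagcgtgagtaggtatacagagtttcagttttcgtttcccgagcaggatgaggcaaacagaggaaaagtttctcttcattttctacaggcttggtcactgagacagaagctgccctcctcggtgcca

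In these windows the first match lies 45 bases before the start in Gbp3, 20 in Oas1a, 75 in Oas3, 120 in Rsad2 and 78 in Isg15. The matches overlap in Gbp3 and Oas1a, each with 2, and in Isg15. The window of Gbp3 is the first of 2 that RefSeq gives for it, and the other holds no match.

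Of the 4 sensor genes, 2 rose in ketogenic livers and 0 in high-fat livers. Dhx58 encodes LGP2, a helicase that tunes signalling by the related RNA sensors. Its level was 12.6, 15.2, 12.1, 9.97 and 13.1 CPM in ketogenic, 11.9, 9.42, 10.9, 11.3 and 12.7 CPM in high-fat and 9.16, 8.50, 10.0 and 9.25 CPM in control livers. All ketogenic libraries but replicate 4 lay above every control, and the high-fat libraries overlapped both groups. Dhx58 had a log2 fold change of 0.45 ± 0.13 (SE) in ketogenic livers (edgeR adjusted p = 0.0327) and 0.28 ± 0.13 in high-fat livers (edgeR adjusted p = 0.166). Without ketogenic replicate 5 the ketogenic value was 0.41, with an edgeR adjusted p of 0.0619. The call was also lost without any 1 of the controls and without ketogenic replicate 1 or 2, and over all 17 alternatives, DESeq2 included, the adjusted p ran from 0.0110 to 0.102.

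Zbp1 encodes a sensor of Z-form nucleic acids that can start necroptosis, a form of cell death. It stood at 7.55, 11.4, 7.71, 3.72 and 12.9 CPM in ketogenic, 8.15, 5.33, 5.12, 8.70 and 7.86 CPM in high-fat and 3.17, 3.87, 5.43 and 5.20 CPM in control livers. Ketogenic replicate 4 lay within the controls and the other 4 ketogenic libraries above them. The log2 fold change was 0.97 ± 0.30 in ketogenic livers (edgeR adjusted p = 0.0470) and 0.67 ± 0.30 in high-fat livers (edgeR adjusted p = 0.163), and the ketogenic call was lost without ketogenic replicate 5 (0.76, edgeR adjusted p = 0.104). It was lost, too, without any 1 of the controls and without ketogenic replicate 1 or 2, with adjusted p from 0.00669 to 0.121 over the alternatives. The RNA sensors themselves, Ddx58 (RIG-I) and Ifih1 (MDA5), had log2 fold changes of -0.06 ± 0.12 and 0.09 ± 0.14 in ketogenic livers. Ddx58 averaged 24.4 ± 4.04 CPM in ketogenic, 23.4 ± 1.30 CPM in high-fat and 25.5 ± 2.66 CPM in control livers. The libraries of these groups overlapped, at 19.2 to 27.8, 21.9 to 24.9 and 21.9 to 27.9 CPM.

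None of the 4 transcription factor genes passed the threshold of edgeR's test in any comparison, and DESeq2 called 0. At an unadjusted p under 0.05, 0 were higher or lower in ketogenic livers, 1 was lower in high-fat livers, and 3 were higher in ketogenic than in high-fat livers. Their log2 fold changes in ketogenic livers were 0.14 ± 0.18 for Irf1, 0.09 ± 0.18 for Irf7, the factor that amplifies interferon production, 0.05 ± 0.11 for Irf9 and 0.04 ± 0.11 for Stat2, both parts of the complex that binds the ISRE. In high-fat livers, those of Irf7 (-0.37 ± 0.18), Irf9 (-0.24 ± 0.11) and Stat2 (-0.24 ± 0.11) were below 0, with edgeR adjusted p of 0.201, 0.156 and 0.191. Stat2 was the only 1 of the 42 whose ketogenic and high-fat libraries did not overlap, at 61.9, 76.5, 61.5, 74.9 and 66.3 CPM in ketogenic against 59.9, 53.6, 58.1, 60.9 and 48.4 CPM in high-fat livers. Over all genes, 0.875% lay above high-fat livers without overlap. The log2 difference of Stat2 was 0.28 ± 0.11 and did not pass the test (edgeR adjusted p = 0.428), and the controls, at 57.7 to 76.7 CPM, overlapped both groups.

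The antiviral effectors were the largest role group, with 14 genes, of which 4 rose in ketogenic livers and 1 in high-fat livers. All 4 of the ketogenic genes belong to the oligoadenylate synthetase family, whose enzymes make short adenylate chains that switch on the nuclease RNase L. Oas1a was at 5.90, 9.42, 7.25, 6.39 and 8.31 CPM in ketogenic, 4.05, 4.74, 3.48, 4.49 and 7.11 CPM in high-fat and 4.64, 4.28, 4.97 and 3.997 CPM in control livers. Every ketogenic library lay above every control, while 4 of the 5 high-fat libraries lay below the highest control. Its log2 fold change was 0.74 ± 0.20 in ketogenic livers (edgeR adjusted p = 0.0263) and 0.09 ± 0.20 in high-fat livers (edgeR adjusted p = 0.807). Leaving out ketogenic replicate 2 or control replicate 3, 4 or 5 ended the call, and the adjusted p ran from 0.0108 to 0.0876 over the alternatives. The direct difference between ketogenic and high-fat livers was 0.64 ± 0.19 and did not pass (edgeR adjusted p = 0.250). Reads of Oas1a can also match its close copy Oas1g, and the sources used here do not say how such reads were assigned.

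Oas2 was at 7.21, 6.62, 2.71, 3.81 and 11.7 CPM in ketogenic, 2.20, 4.62, 5.45, 2.96 and 4.58 CPM in high-fat and 2.71, 2.29, 2.56 and 1.66 CPM in control livers. Ketogenic replicate 5 was the highest of the 14 and replicate 3 lay level with the highest control. On the log2 scale, Oas2 rose by 1.48 ± 0.38 in ketogenic livers (edgeR adjusted p = 0.0183) and by 1.12 without replicate 5 (edgeR adjusted p = 0.0322). In high-fat livers the value was 0.78 ± 0.38 (edgeR adjusted p = 0.193). The ketogenic call was lost without control replicate 3 or 5, with adjusted p from 0.00160 to 0.0662 over the alternatives.

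Oas3, the largest enzyme of the family, was at 2.55, 2.46, 1.63, 1.103 and 6.04 CPM in ketogenic, 2.02, 2.01, 1.03, 1.58 and 1.59 CPM in high-fat and 0.961, 1.12, 0.871 and 1.03 CPM in control livers. Ketogenic replicate 5 was the highest of the 14, and replicate 4 lay within the controls. The log2 fold change was 1.47 ± 0.41 in ketogenic livers (edgeR adjusted p = 0.0273) and 0.94 without replicate 5, where it missed the threshold (edgeR adjusted p = 0.0503). It missed the threshold without any 1 of the controls as well, with adjusted p from 0.00693 to 0.0839 over the alternatives. In high-fat livers it was 0.72 ± 0.41 (edgeR adjusted p = 0.277).

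Oasl2, an oligoadenylate synthetase-like protein, was at 7.81, 7.63, 5.31, 4.96 and 13.9 CPM in ketogenic, 6.53, 7.58, 5.12, 6.60 and 8.16 CPM in high-fat and 3.05, 4.02, 3.74 and 4.74 CPM in control livers. All libraries of both fat-rich diets lay above all controls. It rose by 1.03 ± 0.27 on the log2 scale in ketogenic livers (edgeR adjusted p = 0.0195), with 0.71 without replicate 5 (edgeR adjusted p = 0.0296), while in high-fat livers the value was 0.80 ± 0.27 (edgeR adjusted p = 0.0621). The ketogenic call was lost without control replicate 2 or 4, and its adjusted p ran from 0.00376 to 0.0615 over the alternatives. Oasl1, which limits translation of Irf7 in mouse, had log2 fold changes of -0.18 ± 0.21 in ketogenic and -0.20 ± 0.21 in high-fat livers and did not pass.

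Rsad2 encodes viperin, an enzyme that makes a chain-terminating nucleotide and blocks replication of many viruses. Its level was 8.84, 12.9, 10.4, 10.9 and 20.8 CPM in high-fat livers and 5.37, 6.36, 8.76 and 7.02 CPM in control livers, with every high-fat library above every control. It rose by 0.89 ± 0.25 on the log2 scale (edgeR adjusted p = 0.0279), a call that was lost without control replicate 2, 3 or 5 and without high-fat replicate 2 or 5 (0.65 to 1.03 over all alternatives, edgeR and DESeq2 adjusted p from 0.00795 to 0.0782). Ketogenic livers held 12.9, 12.9, 7.97, 7.81 and 11.4 CPM, a log2 fold change of 0.62 ± 0.24 that did not pass (edgeR adjusted p = 0.109). Its neighbour in the pathway Cmpk2, the kinase that supplies the substrate of viperin, had log2 fold changes of 0.65 ± 0.31 in ketogenic and 0.73 ± 0.31 in high-fat livers, with edgeR adjusted p of 0.189 and 0.144.

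The remaining antiviral effectors did not pass the threshold. The Ifit genes, whose proteins bind foreign RNA ends, had ketogenic log2 fold changes of 0.37 ± 0.25 (Ifit1), 0.72 ± 0.27 (Ifit2), 0.47 ± 0.17 (Ifit3) and 0.80 ± 0.28 (Ifit3b), and edgeR adjusted p from 0.0723 to 0.360. Ifit3 and Ifit3b are near-identical copies, and their values are uncertain for the same reason as that of Oas1a. Ifit2 was at 5.14, 6.75, 4.61, 5.14 and 5.72 CPM in high-fat and 3.73, 4.23, 4.41 and 4.11 CPM in control livers, without overlap, but with a log2 fold change of 0.41 ± 0.27 (edgeR adjusted p = 0.346). Mx1 and Mx2, antiviral GTPases related to dynamin, had log2 fold changes of 0.67 ± 0.41 and 0.23 ± 0.25 in ketogenic livers. Bst2 had log2 fold changes of -0.30 ± 0.18 in ketogenic and -0.42 ± 0.18 in high-fat livers (edgeR adjusted p = 0.297 and 0.149).

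Across the 42, the ketogenic libraries did not overlap the controls, all being higher, for 4 genes: Oas1a, Oasl2, Dtx3l and Ifi44. This is a share close to the 7.38% of all genes that did so. High-fat libraries lay above all controls for Ifit2, Oasl2, Rsad2 and Gbp2, where 9.45% of all genes did.

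Among the 6 genes of ubiquitin-like, ubiquitin and ADP-ribose pathways, 1 rose in ketogenic and 0 in high-fat livers. Dtx3l is a ubiquitin ligase that pairs with the ADP-ribosyltransferase-like protein Parp9. It was at 66.6, 62.0, 47.6, 60.7 and 56.8 CPM in ketogenic, 48.3, 62.7, 53.1, 57.5 and 43.6 CPM in high-fat and 46.1, 46.9, 45.8 and 38.3 CPM in control livers. All ketogenic libraries lay above the controls, replicate 3 by less than 1 CPM. Dtx3l had a log2 fold change of 0.41 ± 0.12 in ketogenic livers (edgeR adjusted p = 0.0403) and 0.26 ± 0.12 in high-fat livers (edgeR adjusted p = 0.182). The ketogenic call was lost in each fit that left out a control or ketogenic replicate 1, 2, 4 or 5, with adjusted p from 0.0144 to 0.137 over the alternatives. Its partner Parp9 had 0.17 ± 0.10 and 0.05 ± 0.10 in the same comparisons and did not pass.

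Isg15, a ubiquitin-like protein that is attached to other proteins, was at 6.49, 9.13, 9.76, 7.03 and 4.87 CPM in ketogenic, 8.27, 4.80, 4.56, 5.22 and 9.4005 CPM in high-fat and 4.92, 5.19, 5.07 and 5.60 CPM in control livers. Ketogenic replicate 5, the highest library for 6 of the 10 genes that rose, held the lowest ketogenic value here, below every control. The log2 fold change was 0.52 ± 0.24 in ketogenic livers (edgeR adjusted p = 0.173). Usp18, the protease that removes Isg15 and restrains receptor signalling, came nearest to the threshold among the genes that missed it in ketogenic livers, with 0.83 ± 0.28 in ketogenic livers (edgeR adjusted p = 0.0655) and 0.49 ± 0.28 in high-fat livers (edgeR adjusted p = 0.275). Parp14, a mono-ADP-ribosyltransferase, had 0.06 ± 0.16 and Trim30a, a mouse TRIM protein, 0.56 ± 0.27 in ketogenic livers, with edgeR adjusted p of 0.851 and 0.198.

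**Figure D3:**
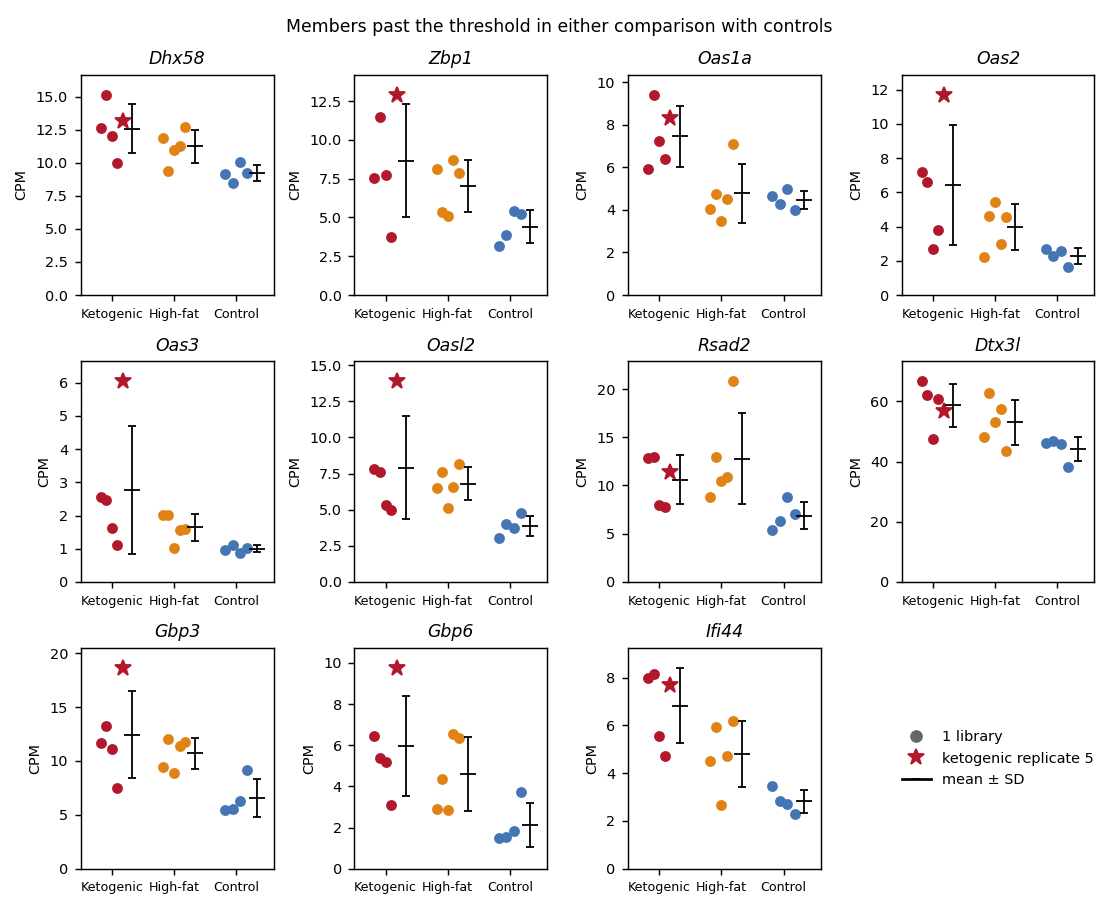
Level in CPM of the 11 genes past the threshold in either comparison with controls, with 1 point per library and bars for the mean ± SD of each diet, and a star for ketogenic replicate 5. The star is the highest of the 14 points for Zbp1, Oas2, Oas3, Oasl2, Gbp3 and Gbp6, while high-fat replicate 5 is the highest for Rsad2.

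The interferon-inducible GTPases split into guanylate-binding proteins, which coat and break open vacuoles that hold microbes, and immunity-related GTPases, which act with them. Of the 8, 2 rose in ketogenic livers (Gbp3 and Gbp6) and 0 in high-fat livers. Gbp3 was at 11.7, 13.3, 11.1, 7.49 and 18.6 CPM in ketogenic, 9.42, 12.03, 8.93, 11.4 and 11.8 CPM in high-fat and 5.43, 5.55, 6.25 and 9.19 CPM in control livers. All libraries of both fat-rich diets lay above 3 of the 4 controls, and control replicate 5 overlapped them. Its log2 fold change was 0.92 ± 0.23 in ketogenic livers (edgeR adjusted p = 0.0149), 0.71 without replicate 5 (edgeR adjusted p = 0.0270), and 0.70 ± 0.23 in high-fat livers (edgeR adjusted p = 0.0559). Without control replicate 3 or 4 the ketogenic call was lost, and its adjusted p ran from 0.00235 to 0.0546 over the alternatives.

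Gbp6 was at 6.45, 5.36, 5.21, 3.08 and 9.74 CPM in ketogenic, 2.89, 4.38, 2.87, 6.56 and 6.37 CPM in high-fat and 1.47, 1.53, 1.84 and 3.71 CPM in control livers. Control replicate 5 stood above the other controls and above ketogenic replicate 4. Gbp6 had a log2 fold change of 1.49 ± 0.38 in ketogenic livers (edgeR adjusted p = 0.0171), 1.22 without ketogenic replicate 5 (edgeR adjusted p = 0.0334), and 1.12 ± 0.37 in high-fat livers (edgeR adjusted p = 0.0655). The ketogenic call was lost without control replicate 3 or 4, with adjusted p from 0.00141 to 0.0624 over the alternatives. Its close copy Gbp10 may share reads with it.

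Gbp2 had large fold changes that did not pass, 1.05 ± 0.39 in ketogenic livers (edgeR adjusted p = 0.0963) and 1.12 ± 0.39 in high-fat livers (edgeR adjusted p = 0.0789). In ketogenic livers it was at 8.95, 6.81, 8.48, 4.64 and 25.1 CPM, so that replicate 5 held more than the other 4 by a wide gap, against 3.73 to 6.45 CPM in controls. Without that replicate the log2 fold change was 0.45. Gbp7 (0.27 ± 0.22), Ifi47 (0.68 ± 0.25), Irgm1 (0.23 ± 0.13) and Irgm2 (-0.02 ± 0.21) did not pass in ketogenic livers. Igtp, also an immunity-related GTPase, had the lowest value of the 42 in ketogenic livers, -0.48 ± 0.26 (edgeR adjusted p = 0.251), with 23.7 ± 8.56 CPM in ketogenic and 33.01 ± 9.45 CPM in control livers.

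Ifi44, an interferon-induced cytoplasmic protein, had the smallest adjusted p of the 42. It was at 7.98, 8.16, 5.57, 4.73 and 7.69 CPM in ketogenic, 4.51, 5.92, 2.68, 4.74 and 6.17 CPM in high-fat and 3.45, 2.85, 2.71 and 2.28 CPM in control livers. Every ketogenic library lay above every control, and 4 of the 5 high-fat libraries did. Ifi44 rose by 1.27 ± 0.24 on the log2 scale in ketogenic livers (edgeR adjusted p = 0.00310), and by 1.21 without ketogenic replicate 5 (edgeR adjusted p = 0.00498). In high-fat livers its value was 0.76 ± 0.24 (edgeR adjusted p = 0.0535). It was the only 1 of the 10 that passed under all 17 alternatives, with values from 1.18 to 1.46 and edgeR and DESeq2 adjusted p from 3.29e-05 to 0.0157. The difference between ketogenic and high-fat livers was 0.51 ± 0.22 (edgeR adjusted p = 0.521).

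Ifi27 showed another pattern. It was at 156, 203, 226, 219 and 93.3 CPM in ketogenic, 143, 76.7, 62.5, 102 and 119 CPM in high-fat and 167, 114, 125 and 127 CPM in control livers. All ketogenic libraries but replicate 5 lay above all high-fat libraries, and replicate 5 lay among them. The log2 difference between ketogenic and high-fat livers was 0.84 ± 0.24 (edgeR adjusted p = 0.250), and 0.997 without replicate 5, where it passed (edgeR adjusted p = 0.0211, and from 0.0211 to 0.551 over the alternatives). Against controls it was 0.43 ± 0.26 in ketogenic and -0.40 ± 0.26 in high-fat livers (edgeR adjusted p = 0.297 and 0.326). The last 4 genes did not pass, with ketogenic log2 fold changes of -0.06 ± 0.16 for Ifi35, 0.58 ± 0.24 for Xaf1, which promotes cell death, 0.16 ± 0.15 for Rtp4 and 0.20 ± 0.15 for Tap1, the peptide transporter that loads class I molecules.

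Libraries of the same diet differed from each other. The median log2 ratio of the 42 to the control mean was 0.41, 0.51, 0.22, 0.05 and 0.54 in ketogenic replicates 1 to 5, 0.11, 0.05, -0.03, 0.19 and 0.37 in high-fat replicates 1 to 5, and -0.08, -0.09, 0.12 and -0.03 in control replicates 2 to 5. Ketogenic replicate 4 thus lay among the controls, as did high-fat replicates 1, 2 and 3. High-fat replicates 1, 4 and 5 lay within the range of the ketogenic libraries. Ketogenic replicate 5 was the highest of the 14 for 17 of the 42 (40.5%), and for 18.9% of all genes. Compared with the other 4 ketogenic libraries, it lay above all of them for 20 genes, within them for 13 and below them for 9, which were Irf7, Irf9, Ifit1, Oasl1, Mx2, Isg15, Parp9, Ifi27 and Ifi35. The share of all genes in each of these positions was not worked out. A ketogenic library was the highest of the 14 for 32 of the 42 (76.2%, against 45.7% of all genes). A control library was the lowest for 22 (52.4%, against 33.1%), with 4 control libraries against 5 in each fat-rich diet.

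Markers of other cell types were summed in the same libraries, and ketogenic replicate 5 had the highest sum for macrophages and lymphocytes. Summed markers of monocytes and monocyte-derived macrophages (8 genes) were at 187, 172, 116, 105 and 716 CPM in ketogenic, 199, 230, 314, 204 and 276 CPM in high-fat and 165, 98.4, 114 and 85.7 CPM in control livers, with none of the 8 at 0 in any library. Of the 8, 2 rose in ketogenic livers (Gpnmb and Trem2), and 1 rose in high-fat livers (Gpnmb). Another 2 of the 8 had log2 fold changes below 0 in each diet, down to -2.35 in ketogenic and -1.59 in high-fat livers. Over all genes, 7.47% rose and 4.6% fell in ketogenic livers, and 6.95% rose and 5.01% fell in high-fat livers. Kupffer cell markers (9 genes, none at 0) summed to 295 to 922 CPM in ketogenic, 427 to 669 CPM in high-fat and 333 to 528 CPM in control livers, with 1 of the 9 lower in ketogenic livers (Timd4), and ketogenic replicate 5 again held the highest sum. T and NK cell markers (11 genes, none at 0) were at 26.1 CPM in ketogenic replicate 5 and at 4.35 to 10.0 CPM in the other 13 libraries. B and plasma cell markers (6 genes, with Mzb1 at 0 in 1 library) were at 31.9 CPM in ketogenic replicate 5, the highest of 5.77 to 31.9 CPM in ketogenic livers, against 9.24 to 19.9 CPM in high-fat and 14.8 to 24.4 CPM in control livers. Plasmacytoid dendritic cell markers summed to 3.98 to 35.6 CPM in ketogenic, 9.02 to 47.0 CPM in high-fat and 3.94 to 18.2 CPM in control livers, with Ccr9, Klk1 and Cox6a2 at 0 in at least 1 library. Among the 5 of them that were tested, 0 rose in ketogenic and 1 rose in high-fat livers. Stellate cell markers (6 genes, none at 0) were at 431, 365, 307, 299.8 and 680 CPM in ketogenic, 359, 438, 450, 466 and 402 CPM in high-fat and 279, 292, 275 and 281 CPM in control livers. Every library of both fat-rich diets lay above every control, and 3 of the 6 rose in ketogenic livers (Col1a1, Col3a1 and Pdgfrb) and 2 in high-fat livers (Dcn and Pdgfrb). Sinusoidal endothelial markers (6 genes, none at 0) overlapped between the diets, at 186 to 265 CPM in ketogenic, 227 to 318 CPM in high-fat and 232 to 301 CPM in control livers, and 1 of the 6 fell in each fat-rich diet (Kdr). Neutrophil markers (6 genes, with Ly6g, Retnlg and Mmp8 at 0 in at least 1 library) summed to 2.40 to 15.4 CPM in ketogenic, 4.53 to 13.4 CPM in high-fat and 2.91 to 85.2 CPM in control livers. Pancreatic acinar markers (7 genes, with Cpa1, Cel and Cpb1 at 0 in at least 1 library) ran from 6.88 to 262 CPM in ketogenic, 89.4 to 634 CPM in high-fat and 24.6 to 1391 CPM in control livers. The part of these cells in the interferon response genes was not tested. Of the 10 genes that rose, 6 also passed without ketogenic replicate 5 (Ifi44, Gbp3, Gbp6, Oas1a, Oas2 and Oasl2).

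**Figure D4:**
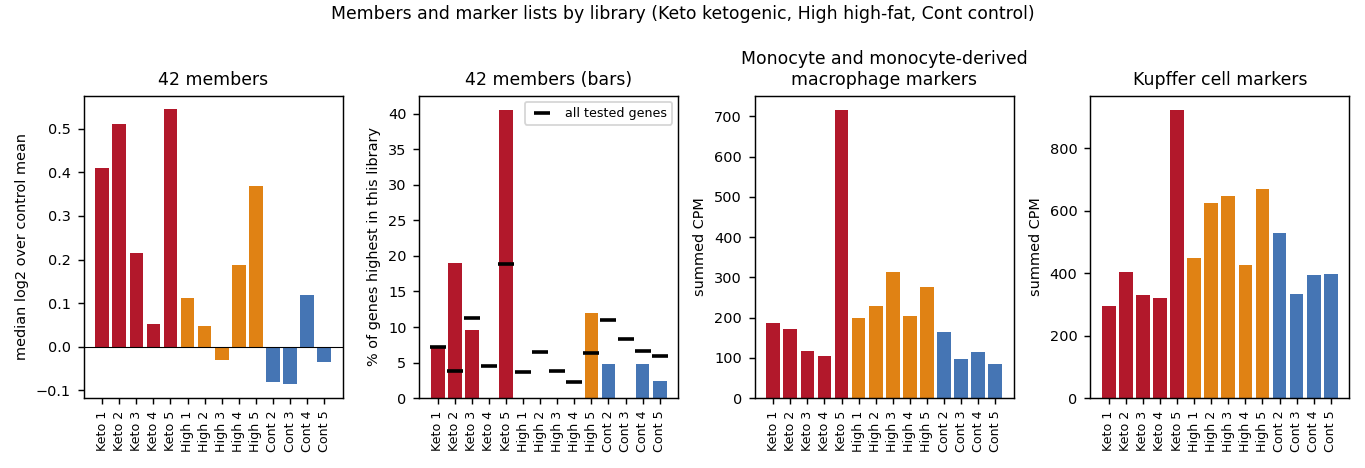
Bars for the 14 libraries, showing the median log2 ratio of the 42 genes to the control mean, the percentage of the 42 with their highest value in that library beside that of all genes tested (black marks), and the summed CPM of the monocyte and Kupffer cell marker lists. Ketogenic replicate 5 is the highest bar in all 4 panels, at 0.54, 40.5%, 716 CPM and 922 CPM.

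Interferon genes themselves were scarcely detected. Of 10 ligand genes listed, 9 had 0 counts in all 14 libraries, which allows up to 0.0105 CPM at 3 counts over all of them, a limit that covers counting error only. Ifng, the gene of interferon gamma, had 9 counts over the ketogenic, 6 over the high-fat and 0 over the control libraries, too few for the filter, and was not tested. Of the 9 ketogenic counts, 8 were in replicate 5 and 1 in the other 4 libraries.

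Receptors and the other genes of the pathway were read from 5 lists with 85 tested genes, none of them among the 42. In ketogenic livers 7 of the 85 rose and 4 fell, and in high-fat livers 7 rose and 2 fell. Among all genes, 4.6% fell in ketogenic and 5.01% in high-fat livers. The 7 are 8.24% of the 85 in either comparison, a share close to the 7.47% and 6.95% of all genes that rose in ketogenic and high-fat livers. Ifngr2, the second chain of the interferon gamma receptor, was at 23.1, 26.4, 19.4, 16.5 and 25.01 CPM in ketogenic, 17.6, 17.8, 20.3, 19.7 and 22.5 CPM in high-fat and 13.5, 12.2, 11.6 and 11.6 CPM in control livers. All libraries of both fat-rich diets lay above all controls, and the gene rose by 0.85 ± 0.13 (edgeR adjusted p = 0.000681) and 0.68 ± 0.13 (edgeR adjusted p = 0.00448) on the log2 scale. The other receptor chains Ifngr1, Ifnar1 and Ifnar2 did not pass.

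Of 13 genes of nucleic acid sensing and its adaptors, 0 rose and 2 fell in each fat-rich diet. Of 6 genes that restrain the response, 1 fell in ketogenic and 1 rose in high-fat livers. Among all genes, 7.47% rose and 4.6% fell in ketogenic livers, and 6.95% rose and 5.01% fell in high-fat livers. With lists this short, 1 gene moves the share widely. Mavs, the mitochondrial adaptor of the RNA sensors, was at 81.1, 83.9, 90.05, 94.96 and 82.8 CPM in ketogenic and 120, 123, 124 and 116 CPM in control livers, without overlap, a log2 fold change of -0.48 ± 0.09 (edgeR adjusted p = 0.00339). Irf5, a factor downstream of Toll-like receptors, fell by 0.64 ± 0.17 in ketogenic livers (edgeR adjusted p = 0.0232) and by 0.83 ± 0.17 in high-fat livers (edgeR adjusted p = 0.00586). Irf2, which competes with Irf1 for its sites, fell by 0.50 ± 0.13 in ketogenic livers (edgeR adjusted p = 0.0224), and the kinase gene Ikbke by 0.60 ± 0.16 in high-fat livers (edgeR adjusted p = 0.0240). When scaled by library totals instead of TMM, the falls of Irf2, of Ikbke and, in ketogenic livers, of Irf5 did not pass. Leaving out control replicate 3 or 4 ended the call of Irf2 and, like leaving out ketogenic replicate 1, that of Irf5 in ketogenic livers, and leaving out high-fat replicate 2, 4 or 5 or control replicate 4 ended that of Ikbke. Ptpn6, a phosphatase of blood cells, was higher in high-fat livers by 0.70 ± 0.21 (edgeR adjusted p = 0.0410), a call lost without control replicate 3, 4 or 5 or high-fat replicate 2, 3, 4 or 5.

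Of 42 further interferon-stimulated genes tested, 6 rose and 1 fell in ketogenic livers, and 5 rose and 0 fell in high-fat livers. The risen genes are 14.3% and 11.9% of these, beside 7.47% and 6.95% of all genes, and 4.6% and 5.01% of all genes fell. Cxcl10, a chemokine that draws activated T cells, was at 5.39, 3.04, 4.70, 2.48 and 10.51 CPM in ketogenic, 3.24, 4.27, 4.37, 4.62 and 7.51 CPM in high-fat and 1.02, 1.32, 1.59 and 0.912 CPM in control livers. All libraries of both fat-rich diets lay above all controls, with rises of 2.10 ± 0.40 (edgeR adjusted p = 0.00272) and 1.98 ± 0.40 (edgeR adjusted p = 0.00488). Tor3a, a torsin-family ATPase, rose by 1.38 ± 0.21 in ketogenic and 1.22 ± 0.21 in high-fat livers, and Lgals3bp, a secreted galectin-binding protein, by 0.74 ± 0.12 and 0.50 ± 0.12. Herc6, the mouse ligase that attaches Isg15, rose by 0.59 ± 0.15 and 0.58 ± 0.15 in the same comparisons. Oas1g and Gbp10, the close copies of Oas1a and Gbp6, rose in ketogenic livers by 1.44 ± 0.28 and 1.69 ± 0.46, and Ube2l6, the enzyme that hands Isg15 on, in high-fat livers by 0.48 ± 0.15 (edgeR adjusted p from 0.000600 to 0.0454 for these 9 rises). The call of Gbp10 was lost without ketogenic replicate 1 or 5 or control replicate 3 or 4, that of Herc6 in high-fat livers without control replicate 4, and that of Ube2l6 without high-fat replicate 1, 3, 4 or 5 or control replicate 3, 4 or 5. Ifitm2, which blocks fusion of viruses in endosomes, fell in ketogenic livers by 0.63 ± 0.15 (edgeR adjusted p = 0.0130). None of the 14 genes of class I antigen presentation and the immunoproteasome passed in edgeR's test in either comparison, B2m and Psmb8 among them. At an unadjusted p under 0.05, 3 of the 14 were higher in ketogenic livers, against 16.2% of all genes. In high-fat livers it was 0 of the 14, against 14.4% of all genes, and DESeq2 called 0 in both comparisons.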

How the data were processed

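The authors deposited raw counts of reads for each Ensembl ID, with 1 column a library. Libraries were made from poly(A)-selected RNA with a directional kit, per the labels' protocols. Build GRCm39 and the tools STAR 2.7.9a, cutadapt 1.16, DESeq2 1.36.0 and featureCounts 1.6 are named in the submitters' processing notes, without roles. With the handling of strand and of multiply matching reads not given in the sources used here, overlapping genes and near-identical copies are uncertain.

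Symbols and exon lengths came from GENCODE M21 of an earlier build, which matched 91.39% of IDs and 98.17% of the genes tested. Genes were kept with filterByExpr of edgeR 4.0.16 (minimum count 10, minimum total 15), scaled with TMM (factors 0.886 to 1.22) and tested in 1 fit over 3 diets by glmQLFit (robust) and glmQLFTest (two-sided) in R 4.3.3, a script tested on simulated data. The SE is the absolute log2 fold change over the square root of F, and 95% intervals are 1.96 SE to each side. The biological coefficient of variation was 0.25. Each of the 42 members is named whatever its result. The members, their grouping by role and the other lists were chosen with earlier results of these data known. The values of 1 further pathway gene are not reported here.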

Additional observations from a re-analysis of the deposited data

Results flagged for a closer look

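In 10 cases a single library stood far from the others of its diet by Dixon's test at the 95% level, over 126 tests of a gene within a diet, where chance flags about 1 in 20. Ketogenic replicate 5 was far above the other ketogenic libraries for Irf1 (47.0 CPM), Mx1 (3.51 CPM) and Gbp2 (25.1 CPM), and ketogenic replicate 1 far below them for Bst2 (72.6 CPM). High-fat replicate 5 stood out high for Cmpk2 (11.6 CPM) and low for Gbp7 (9.75 CPM), and high-fat replicate 4 high for Gbp2 (15.3 CPM). Among controls, replicate 4 stood out high for Parp9 (53.9 CPM), and replicate 5 low for Dtx3l (38.3 CPM) and high for Gbp6 (3.71 CPM).

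The control library that the submitters excluded as contaminated, replicate 1, lay above all 4 other controls for 4 of the 42 genes (Oas3, Rsad2, Isg15 and Dtx3l). It lay within them for 24 and below them for 14. Its CPM were scaled by its own total over the genes tested, without TMM. The other controls had TMM factors of 0.961, 0.964, 0.910 and 0.886, which raised their CPM. The scales therefore differ, and these positions are uncertain. Positions were not counted over all genes. It was in no comparison.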

How the results depend on the processing

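In ketogenic against control, high-fat against control and ketogenic against high-fat livers, 10, 1 and 0 of the 42 genes passed. Library totals in place of TMM gave 16 and 3 in both comparisons with controls. They shift the median gene by 0.18 and 0.13 on the log2 scale, and the median of the 42 relative to all genes was 0.41 with TMM and 0.40 with totals in ketogenic, and 0.14 and 0.13 in high-fat livers. With totals the split of all genes was 1826 higher and 368 lower in ketogenic against control livers, where TMM gave 1093 and 673, and 1302 and 420 in high-fat against control livers, where TMM gave 1016 and 733. DESeq2's Wald test (version 1.42.0) gave 13 of the 42 in ketogenic and 6 in high-fat livers, with 1350 and 1287 of all genes higher. Fitting only both diets compared gave 5 in ketogenic and 6 in high-fat livers, with 785 and 1413 of all genes higher. Without the filter on low counts, 7 of the 42 passed in ketogenic and 1 in high-fat livers, with 864 and 788 of all genes higher. With library number, up to 9 or from 13 on, as a covariate, it was 7 and 1, with 970 and 906 of all genes higher. Dhx58, Zbp1 and Dtx3l no longer passed in ketogenic livers in either fit. Over all genes, ketogenic against high-fat livers had 9 calls, 15 with totals, 169 with DESeq2, 26 without the filter on low counts and 1 with only both diets. Leaving out 1 library gave 2 to 16, 0 to 2 and 0 to 1 of the 42 in the same 3 comparisons, and 1056 to 2201, 934 to 2145 and 1 to 315 of all genes, where all libraries gave 1766, 1749 and 9. No gene of the 42 that passed in any alternative had the opposite sign there. Values that passed nowhere changed sign in 16, 28 and 22 cases. The causes were not tested.

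Replicate numbers are shared between diets, and the labels do not say what they mean. Deviations from the group means of libraries with the same number correlated at -0.40 to 0.42. Libraries with different numbers were not compared in this way, so these values cannot show whether the numbers pair the libraries. With a replicate block, 5 of the 42 passed in ketogenic livers (Ifi44, Gbp3, Gbp6, Oas1a and Oasl2, all among the 10) and 3 in high-fat livers (Gbp3, Gbp6 and Oasl2, without Rsad2), and 15 of all genes between ketogenic and high-fat livers. With the block, 795 of all genes were higher in ketogenic and 828 in high-fat livers than in controls, where the fit without it gave 1093 and 1016. Counts as low as those of Mx1 and Oas3 limit what can be seen at this depth.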
